A study of Homo sapiens with 18 samples.

Results

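The minor spliceosome snRNAs were U11, U12, U4atac and U6atac, taken as every row of the count table whose name began with one of these RNAs or their genes and whose length was at most 500 nt. This rule found 54 of 175935 rows, of which 4 were U11, 2 were U12, 12 were U4atac and 36 were U6atac. They were measured in HEK293T cells, a human embryonic kidney line, collected 48 h after transfection by RNAimax. The siRNA was either si-SSB, against the mRNA of the La protein (siSSB below), or si-scramble, which served as control. RNA came from whole cells (total) or from the nuclear (nuc) or cytoplasmic (cyto) fraction of a separation kit, and small RNA libraries were made with PNK treatment. Each of the 6 groups had 3 libraries, which the series describes as biological replicates. SSB mRNA was not analysed here, so the depth of the knockdown is not given.

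Most human introns are removed by the major spliceosome, which holds the snRNAs U1, U2, U4, U5 and U6. A small class of introns, called U12-type, is removed by the minor spliceosome, in which U11 recognises the 5′ splice site and U12 the branch point. Both arrive at the intron together, as a U11/U12 di-snRNP. U4atac pairs with U6atac and releases it when the spliceosome is activated, and U5 is shared by both machines. U11, U12 and U4atac are made by RNA polymerase II (Pol II), pass through the cytoplasm to receive a ring of Sm proteins and return to the nucleus. U6atac is made by RNA polymerase III (Pol III) and, like other Pol III transcripts, ends in a run of U. That 3′ end is what La, the protein encoded by SSB, binds. The Pol II and Pol III members are therefore described apart.

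The sequences of the 4 functional genes are shown to mark the Sm-type site of the Pol II members and the 3′ run of T of the Pol III member. The genes differ throughout, with 46.9% to 49.0% identity between pairs of them. They are DNA letters of the hg38 genome at the GENCODE gene bounds, 5′ to 3′. In the first 3, capitals mark each match to an Sm-type motif (ATTTTG, with the longer ATTTTTG and with the still longer ATTTTTTG), and in RNU6ATAC the 3′ run of T.
RNU11: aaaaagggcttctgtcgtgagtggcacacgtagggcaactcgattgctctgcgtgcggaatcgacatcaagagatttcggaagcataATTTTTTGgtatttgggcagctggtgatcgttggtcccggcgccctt
RNU12: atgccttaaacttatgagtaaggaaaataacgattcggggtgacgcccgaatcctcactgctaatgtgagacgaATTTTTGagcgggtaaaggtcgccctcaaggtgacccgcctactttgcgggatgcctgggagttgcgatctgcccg
RNU4ATAC: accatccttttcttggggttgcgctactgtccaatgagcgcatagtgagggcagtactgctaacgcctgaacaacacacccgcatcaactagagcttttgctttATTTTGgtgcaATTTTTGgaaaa
RNU6ATAC: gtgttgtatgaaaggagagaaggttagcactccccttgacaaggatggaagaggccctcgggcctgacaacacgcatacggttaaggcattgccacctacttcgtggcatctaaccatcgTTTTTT
The motif was also sought in all 4362 distinct table rows of 170 to 210 nt, where 4.65% held it on the annotated strand and 58.0% on either strand. It was present in all 3 U11 copies and the 1 U12 copy. Of the other copies, 8 of 11 U4atac rows and 2 of 35 U6atac rows held it on their own strand. The RNU6ATAC gene ended in 6 T and was followed by 7 more in the genome.

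On hg38, RNU11 was counted over chr1:28648574-28648758 on the plus strand, RNU12 over chr22:42615219-42615418 on the plus strand, RNU4ATAC over chr2:121530855-121531032 on the plus strand and RNU6ATAC over chr9:134164414-134164589 on the minus strand. These bounds reached 25 or 26 nt past the gene on each side. RNU4ATAC lies in an intron of CLASP1 on the opposite strand and of CLASP1-AS1 on the same strand. RNU12 lies in an intron of a protein-coding gene model on the opposite strand. RNU11 and RNU6ATAC lie in no other GENCODE gene. Longer rows that contain RNU11, RNU12 or RNU4ATAC held little else, since RNU11 gave 99.8% to 99.9% of the counts of the LINC01715 rows that contain it and RNU4ATAC gave 96.2% of those of AC012447.1. Such rows are not independent RNAs here. The 1 row that contains RNU6ATAC is 219669 nt long, and RNU6ATAC gave 17.7% of its 446 counts.

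The 4 functional loci held nearly all counts. Of 408154 counts in the 54 rows over 18 libraries, the 50 copies held 596, or 0.146%. Counts were found for 30 of the 54 rows, and 24 rows were empty in all 18 libraries. U12 was the most counted with 320904 counts at RNU12, followed by RNU11 with 85061, RNU4ATAC with 1514 and RNU6ATAC with 79. Per nucleotide of the gene, RNU12 was above RNU11, RNU11 above RNU4ATAC and RNU4ATAC above RNU6ATAC in 17 of 18 libraries. The exception was replicate 1 of control nuc, where RNU11 was above RNU12. How fully each RNA was recovered in the libraries was not measured, so this is an order of counts and not of RNA amounts. The members together made up 0.226% to 0.946% of the counts in rows of at most 500 nt, with identical rows taken once, and that total was 2468129 to 7970923 counts per library.

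Copies are genomic relatives, most of them with pseudogene names, and their counts are uncertain where a read also matches the functional gene. Only 7 of the 50 copies reached 10 counts over all libraries. Their identity to the functional gene was 77.3% to 99.2%, against 32.3% to 95.2% in the other 43, so identity alone did not separate them. RNU6ATAC2P on chromosome 5 was the closest copy, with 68 counts against 79 at RNU6ATAC. It differs from RNU6ATAC at 1 base, shown in capitals, so a read that does not cover this base could come from either.
RNU6ATAC2P: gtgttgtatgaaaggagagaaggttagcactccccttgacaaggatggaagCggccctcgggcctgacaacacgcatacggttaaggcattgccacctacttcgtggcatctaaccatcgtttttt
RNU12-2P on chromosome X was the most counted copy, with 239 counts, and bases that differ from RNU12 are in capitals.
RNU12-2P: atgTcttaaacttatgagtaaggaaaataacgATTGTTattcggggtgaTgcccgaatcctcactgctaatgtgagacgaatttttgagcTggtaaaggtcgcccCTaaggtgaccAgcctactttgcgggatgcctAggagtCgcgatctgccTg
The other named copies were RNU4ATAC5P with 78 counts, RNU4ATAC10P with 64, RNU4ATAC13P with 44 and RNU4ATAC9P with 41. RNU4ATAC5P and RNU4ATAC10P lie near each other on chromosome 11, in an intron of MIR100HG on the opposite strand. The plot of counts against identity shows how far RNU11, RNU12 and RNU4ATAC stood above their copies. RNU6ATAC did not stand apart in this way, and its copies held 121 of the 200 U6atac counts, or 60.5%.

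**Figure D1:**
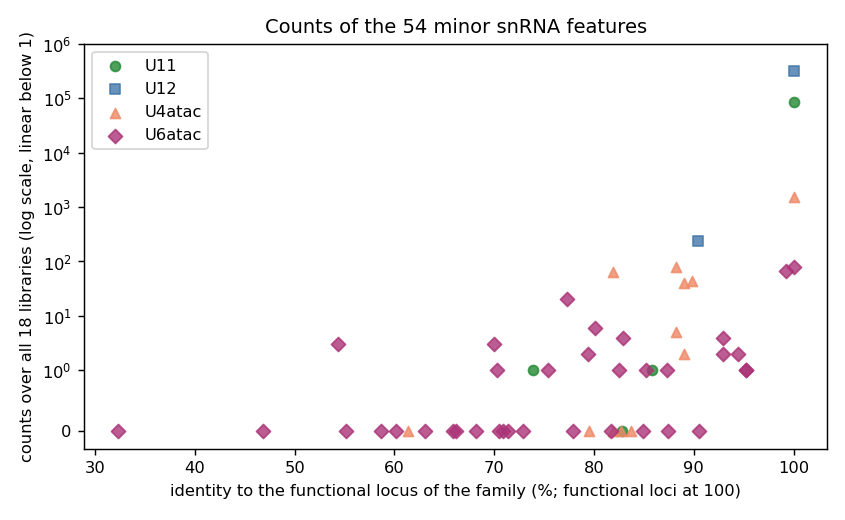
Counts over all 18 libraries (y axis, log scale, linear below 1) against identity to the functional locus of the same family (x axis, percent) for the 54 rows, coloured by family. The 4 functional loci sit at 100% with 79 to 320904 counts, and no copy exceeds 239.

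The fractions were checked against RNAs known to lie in one compartment. snoRNAs, which work in the nucleolus, made up 76.0% to 82.5% of the counts of rows of at most 500 nt in nuc and 7.93% to 11.8% in cyto. tRNAs took 0.788% to 0.982% in nuc and 19.4% to 29.1% in cyto, and mitochondrial tRNAs 0.210% to 0.307% and 2.16% to 4.65%. These followed the labels. RN7SK, MALAT1 and NEAT1, which are known as nuclear RNAs, did not, and RN7SK took 0.0209% to 0.0321% in nuc and 0.334% to 0.461% in cyto. The share of RN7SL1, the cytoplasmic 7SL RNA, overlapped between the fractions. With snoRNAs filling most of the nuc libraries, a share or a fold between fractions depends on what it is scaled to. In these bulk libraries, fewer cells and less RNA per cell cannot be told apart.

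The balance of U11 and U12 differed between the fractions. In control nuc, RNU11 had 8781, 9472 and 6055 counts in replicates 1, 2 and 3, and RNU12 had 9095, 19100 and 11656. In control cyto, RNU11 had 1258, 1087 and 3252 counts and RNU12 had 14761, 12537 and 28683. The ratio of U11 to U12 counts within a library needs no scaling, and it was 0.965, 0.496 and 0.519 in control nuc against 0.0852, 0.0867 and 0.113 for control cyto. Thus U12 counts exceeded U11 counts in both fractions, slightly in nuc replicate 1 and several times over in each cyto library. In siSSB cells RNU11 had 8344, 8333 and 5399 counts in nuc and 1806, 2351 and 1577 in cyto, while RNU12 had 11853, 14158 and 11790 in nuc and 21784, 24865 and 16364 in cyto. The siSSB ratios were 0.704, 0.589 and 0.458 for nuc against 0.0829, 0.0946 and 0.0964 for cyto. Every nuc library lay above every cyto library. The ratio was 6.49-fold higher in nuc than in cyto over both treatments, with 6.67-fold in control and 6.31-fold in siSSB cells (p = 0.005, exact two-sided permutation of fraction labels within each treatment, adjusted p = 0.00583 over 7 such tests, higher in 6 of 6 nuc libraries). This p is the smallest this permutation allows. With labels swapped within the replicate pairs of control cells instead, p was 0.0125, the smallest of that exact permutation. Total RNA lay between the fractions, with ratios of 0.136 to 0.341 over its 6 libraries.

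The same shift was smaller for the major pair. The ratio of U1 to U2 counts, each summed over its gene and copy rows, was 0.608 to 0.884 in nuc and 0.318 to 0.518 in cyto, a 1.69-fold difference (adjusted p = 0.00583, same exact permutation test). The quotient of the U11 to U12 and U1 to U2 ratios differed 3.84-fold between nuc and cyto, again with no overlap (adjusted p = 0.00583, same exact permutation test). Set against the counts of its major counterpart, U11 was 4.68% to 7.19% of U1 in nuc and 2.93% to 4.14% in cyto, or 1.66-fold higher in nuc. U12 went the other way, with 4.46% to 8.87% of U2 in nuc and 14.3% to 17.9% in cyto, or 2.31-fold higher in cyto. Both had an adjusted p of 0.00583 in the same exact permutation test. These ratios are built from the same counts, and the quotient above follows from the others, so the tests are not independent. In total RNA, U11 was 4.23% to 11.1% of U1 (mean 7.05%, against 5.98% in nuc and 3.57% in cyto). U12 was 15.9% to 22.7% of U2 in total RNA (mean 18.8%, against 6.88% in nuc and 15.5% in cyto). These means over both treatments thus lay above both fractions in total RNA. Taken by treatment, this held for U12 in control and siSSB cells, but for U11 in control cells only. In siSSB cells U11 was on average 5.47% of U1 in total RNA, between 5.69% in nuc and 3.22% in cyto. The cause was not tested. U11 and U12 as shares of the 4 functional loci were 31.2% to 48.9% and 50.6% to 68.1% in nuc, and 7.63% to 10.2% and 89.6% to 92.1% in cyto.

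The split of U4atac counts between locus and copies differed between the fractions. RNU4ATAC had 85, 95 and 68 counts in control nuc, 118, 164 and 116 in siSSB nuc, 49, 64 and 58 in control cyto and 65, 60 and 70 in siSSB cyto. Its 11 copies together had 0 to 4 counts per library in control nuc and 16 to 25 in control cyto. They had 0 to 6 in siSSB nuc and 22 to 34 in siSSB cyto. The copies thus held 0% to 4.84% of U4atac counts in nuc and 21.6% to 32.7% in cyto, a nuc minus cyto difference of -26.03 percentage points (adjusted p = 0.00583, exact permutation test as above). Total RNA gave 1.19% to 18.2%. The other copy shares overlapped between the fractions. RNU12-2P held 0.00858% to 0.0769% of U12 counts in nuc and 0.0732% to 0.122% in cyto. The copies of RNU6ATAC held 27.3% to 88.9% of the few U6atac counts in nuc and 44.4% to 100% in cyto. RNU4ATAC was 6.66% to 16.4% of U4 in nuc and 5.00% to 7.31% in cyto, so these ranges overlapped. The mean was 1.85-fold higher in nuc (p = 0.01, adjusted p = 0.01, same exact permutation test), with 1.32-fold in control and 2.60-fold in siSSB cells. In control cells nuc exceeded cyto in 2 of 3 replicates. With all 12 U4atac rows summed in place of RNU4ATAC alone, the difference fell to 0.44 on the log2 scale and missed the threshold (p = 0.07, same exact permutation test).

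Across all rows, edgeR's quasi-likelihood test with TMM scaling called 3 of the 6 members tested higher in control nuc than in control cyto, where 9.21% of all rows tested were called higher, and 1 lower, where 14.1% were. RNU11 rose by 4.18 ± 0.34 (log2 fold change ± SE, adjusted p = 1.37e-11), RNU4ATAC by 2.47 ± 0.34 (adjusted p = 6.52e-07) and RNU12 by 1.57 ± 0.32 (adjusted p = 0.000280). In CPM, the count scaled by edgeR to library size and TMM factor, RNU11 was 255 ± 45.3 in nuc and 14.0 ± 5.27 in cyto (SD, n = 3), and RNU12 427 ± 182 and 144 ± 29.2. The lower member was RNU4ATAC10P, with no count in control nuc and 25 in control cyto. It passed the filter on low counts through the cyto libraries alone, so nothing is read from this count against the background. With TMM scaling, a floor of 3 counts over the nuc group would place it at least 2.11-fold lower in nuc. This bound moves with the scaling and is no test, since the row was kept through its cyto counts. The call of RNU4ATAC10P was lost on leaving out replicate 1, 2 or 3 of control nuc or replicate 3 of control cyto, and by DESeq2. In siSSB cells 3 of 6 members were again called higher, against 10.9% of all rows, and 0 lower, against 14.5%. RNU11 rose by 3.72 ± 0.32 (edgeR adjusted p = 6.85e-10), RNU4ATAC by 2.81 ± 0.34 (adjusted p = 2.33e-07) and RNU12 by 1.06 ± 0.28 (adjusted p = 0.00578). The RNU12 call in siSSB cells was lost without replicate 1 or replicate 3 of siSSB cyto (adjusted p = 0.0654 and 0.0830 in edgeR) and with no filter on low counts (adjusted p = 0.349). Under the miRNA total RNU12 was not called in control (adjusted p = 0.0887) or siSSB cells (adjusted p = 0.165), also in edgeR.

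The direction of these folds depended on the scaling. Scaled to the column sum, RNU11 differed by 0.050 on the log2 scale between control nuc and cyto and RNU12 fell by 2.58. Scaled to the snoRNA total, RNU11 fell by 1.71, RNU12 by 4.36 and RNU4ATAC by 3.57, all called lower, as were 97.5% of all rows. Scaled to the major Pol II snRNAs, RNU11 rose by 1.21 and RNU12 fell by 1.49. The median over all rows moved with the scaling, from -0.27 under TMM to -6.11 under the snoRNA total. Relative to that median, RNU11 lay 4.38 to 4.46 higher, RNU4ATAC 2.54 to 2.80 higher and RNU12 1.72 to 1.85 higher in control nuc under all 7 scalings tried. In siSSB cells these ranges were 3.82 to 3.92, 2.94 to 3.01 and 1.15 to 1.26. A scaling moves all rows of a comparison by nearly the same amount, so this narrow range follows from the construction and is no test of the order. The plot of the 7 scalings shows the shift.

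**Figure D2:**
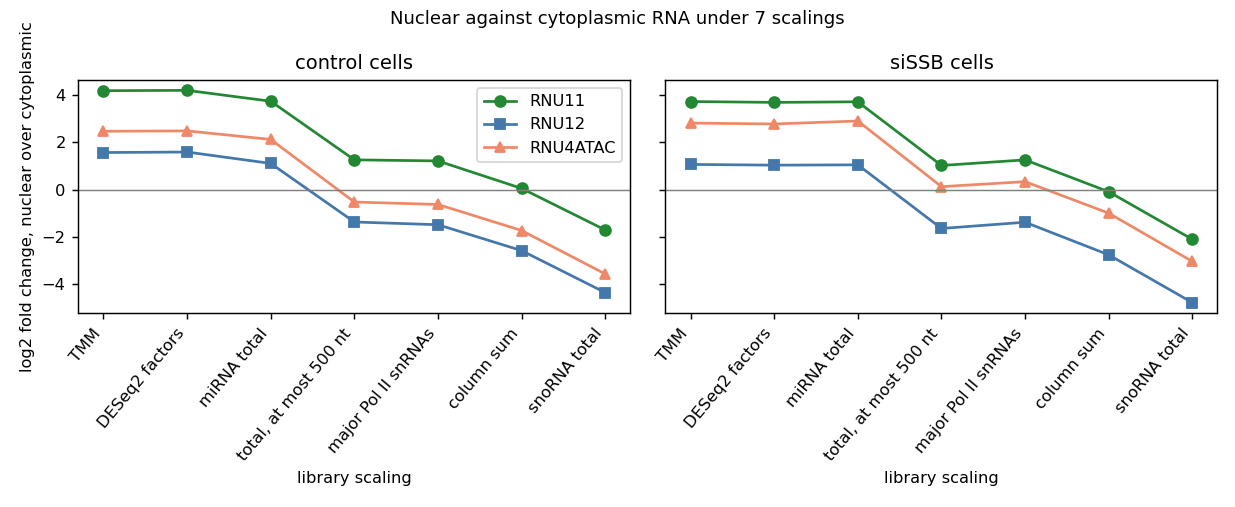
Log2 fold change of nuc over cyto (y axis) for RNU11, RNU12 and RNU4ATAC under 7 library scalings (x axis), in control and siSSB cells. Lines join the values of an RNA, which fall together from TMM (4.18, 1.57 and 2.47 in control cells) to the snoRNA total (-1.71, -4.36 and -3.57).

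Among the 46 rows of the major snRNA list, 38 of 44 tested were called higher in control nuc and 0 lower with TMM, with a median log2 fold change of 3.13 beside -0.27 over all rows. In siSSB cells 38 of 41 were higher and 2 lower, with a median of 2.61 beside -0.19. This direction also turned with the scaling, and under the snoRNA total 44 of 44 were called lower in control cells (median -2.78). Many of these rows are near-identical genes that share reads, so they are not separate observations. RNU7-1, the snRNA of histone mRNA 3′ end processing and no spliceosome part, was lower in control nuc by 2.28 ± 0.33 (edgeR adjusted p = 1.09e-06), and its log2 fold change was negative under all 7 scalings.

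Knockdown of SSB left no Pol II member past the threshold. In total RNA, RNU11 had 9890, 5603 and 3214 counts in control and 2468, 2009 and 4162 in siSSB. RNU12 had 37627, 16455 and 23682 counts in control and 17499, 13848 and 15147 in siSSB. Counts of the groups overlapped for both. In CPM, RNU11 was 103 ± 63.9 in control and 43.1 ± 20.5 in siSSB (SD, n = 3), and RNU12 421 ± 208 and 229 ± 59.3. The log2 fold changes were -1.25 ± 0.47 for RNU11 (edgeR adjusted p = 0.204) and -0.88 ± 0.40 for RNU12 (adjusted p = 0.299). Leaving out 1 library gave -1.69 to -0.66 for RNU11 and -1.15 to -0.41 for RNU12. RNU4ATAC had 83, 72 and 63 counts in control and 55, 150 and 79 in siSSB, with a log2 fold change of 0.18 ± 0.29 (adjusted p = 0.823).

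edgeR called 0 of 4 members in total RNA, where 1.34% of all rows tested were called in either direction, 0 of 3 in nuc, where 0.378% were, and 0 of 4 in cyto, where 0.291% were. At an unadjusted p under 0.05 the members were 2, 1 and 0, where 16.6%, 14.0% and 6.66% of all rows were, and DESeq2 also called 0 in each. The 2 in total RNA were RNU11 and RNU12, and scaling to the miRNA total, alone among the alternatives run, put both past the threshold (-1.69 and -1.34, edgeR adjusted p = 0.0416 and 0.0467, with ranges over all alternatives of 0.0416 to 0.632 and 0.0467 to 0.833). Under that scaling 2085 of all 13883 rows were called lower and the median over all rows was -0.54. The 1 in nuc was RNU4ATAC, with a log2 fold change of 0.61 ± 0.27 (edgeR adjusted p = 0.336). RNU11 and RNU12 had -0.21 ± 0.25 and -0.18 ± 0.29 in nuc, and 0.083 ± 0.32 and 0.17 ± 0.27 in cyto. The major snRNA list gave 0 calls in each comparison too, with 41, 41 and 42 rows tested, 20, 4 and 1 rows at an unadjusted p under 0.05 and none called by DESeq2. Its median in total RNA was -0.70, beside -0.012 over all rows.

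**Figure D3:**
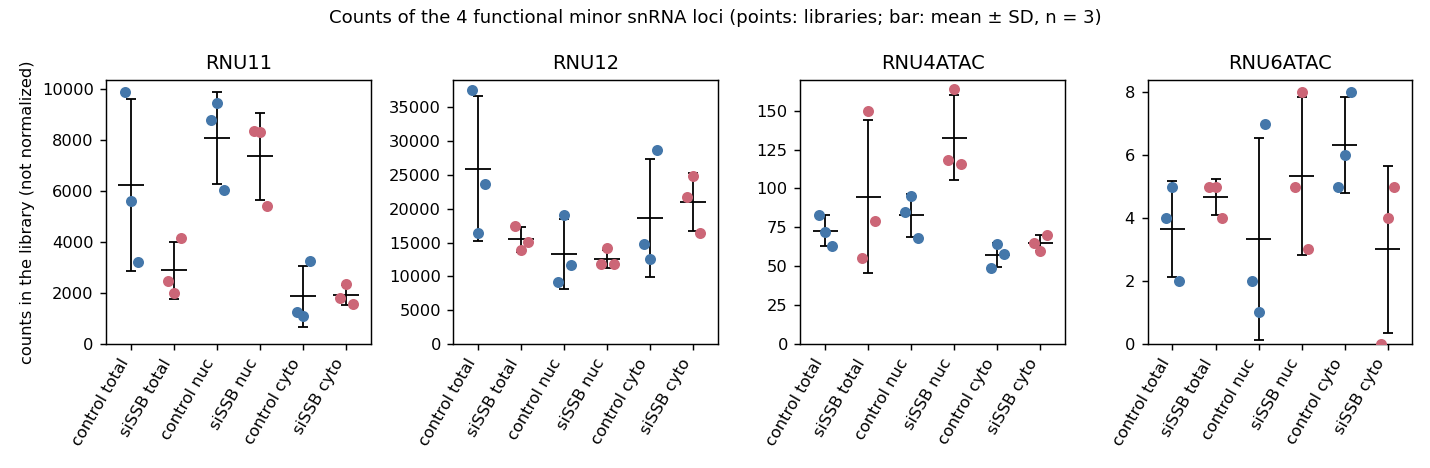
Deposited counts (y axis, not normalized) of RNU11, RNU12, RNU4ATAC and RNU6ATAC by group. Points are libraries and bars the mean ± SD (n = 3), blue control and red siSSB. Libraries differ in depth and composition, so heights do not compare groups. Between RNAs they compare counts and not amounts of RNA. RNU6ATAC never exceeds 8 counts.

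The knockdown effect was not shown to differ between the fractions for any of the 8 members tested together (0 called by edgeR and by DESeq2, where edgeR called 0.0133% of all rows, and 0 at an unadjusted p under 0.05). RNU11 had a nuc minus cyto difference of -0.44 ± 0.42, RNU12 of -0.48 ± 0.42 and RNU4ATAC of 0.36 ± 0.46 on the log2 scale.

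Ratios within a library were also compared between control and siSSB. Over 6 ratios in 3 kinds of RNA, the control and siSSB ranges did not overlap in 2 of 18 comparisons. Of all label splits of 3 against 3 libraries, a share of 0.1 separates the ranges fully, and this count is near that share. It is therefore not read as an effect of the knockdown. With 3 against 3 libraries, an exact permutation p cannot fall under 0.1. RNU4ATAC was 8.80%, 6.66% and 8.55% of U4 in control nuc and 13.9%, 16.4% and 15.2% in siSSB nuc, 1.91-fold higher after knockdown (p = 0.1, exact permutation test, the smallest that 3 against 3 allows). In cyto it was 6.10% ± 1.13 in control and 5.87% ± 0.874 in siSSB (SD, n = 3). The difference between these effects was 0.98 on the log2 scale (p = 0.035, exact permutation of knockdown labels within each fraction, adjusted p = 0.21 over 6 ratios), so it missed the threshold. The other comparison without overlap was U11 as a percent of U1 in cyto, at 3.93% ± 0.197 in control and 3.22% ± 0.265 in siSSB (p = 0.1, exact permutation test, n = 3). Among 10 further ratios that were not tested, ranges did not overlap in 5 of 30 comparisons. These ratios share counts, so this number is not read as an effect either. One of these was the quotient of the U11 to U12 and U1 to U2 ratios in cyto, at 0.262 ± 0.00995 in control and 0.203 ± 0.0312 in siSSB.

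The Pol III member was hardly counted. RNU6ATAC had 4, 5 and 2 counts in control total, 5, 5 and 4 in siSSB total, 2, 1 and 7 in control nuc, 5, 8 and 3 in siSSB nuc, 5, 6 and 8 in control cyto and 0, 4 and 5 in siSSB cyto. It passed the filter on low counts in the control nuc against cyto comparison, with 1.03 ± 0.65 (edgeR adjusted p = 0.278), and in the test of the knockdown effect between fractions, with 1.49 ± 1.02 (adjusted p = 0.962). In the knockdown comparisons it was below the filter, so a response to SSB loss was not detectable at this depth. With RNU6ATAC2P added, the group sums were 22 in control total and 21 in siSSB total, 19 and 28 in nuc, and 38 and 19 in cyto. U6, its counterpart in the major spliceosome and also a Pol III RNA, had 1294 to 4743 counts per library over its rows, and RNU6ATAC was 0% to 0.427% of that. A library with no count allows up to 3. Only replicate 1 of siSSB cyto had none, and there 3 counts were 9e-05% of the counts in rows of at most 500 nt. Over all 18 libraries this floor was 3.76e-05% to 0.000122%. The limit covers counting error only.

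Other Pol III RNAs were tested in the same knockdown fits, and VTRNA1-1 and VTRNA1-2, vault RNAs that end in a U run as U6atac does, were called lower in all 3 kinds of RNA with TMM. The vault RNA VTRNA1-1 fell by 2.25 ± 0.34 in total RNA (edgeR adjusted p = 0.0128), by 1.80 ± 0.27 in nuc (adjusted p = 0.00473) and by 1.83 ± 0.28 in cyto (adjusted p = 0.0342). Both RNAs had negative log2 fold changes under all 16 alternatives in each kind of RNA. Their calls held under all 16 in total RNA. In nuc both calls were lost under 4, among them leaving out replicate 2 of siSSB nuc (adjusted p = 0.197 in edgeR), and in cyto VTRNA1-1 lost its call under 12 and VTRNA1-2 under 5, among them the replicate block (adjusted p = 0.274 and 0.242 in edgeR) and leaving out replicate 1 of control cyto or replicate 1 or 2 of siSSB cyto. VTRNA1-1 lost its cyto call without any 1 of the 6 cyto libraries. Of the 10 Pol III reference RNAs, 3 were called lower in total RNA, 2 in nuc and 2 in cyto, all of them vault RNAs, and none higher. RN7SK had -0.022 ± 0.28 and RMRP, the RNA of RNase MRP, 0.12 ± 0.28 in total RNA, neither called. RNY3 had -0.90 ± 0.39 in total RNA, -1.08 ± 0.30 in nuc and 0.043 ± 0.27 in cyto. RNY5 had -0.44 ± 0.39, -0.99 ± 0.33 and 0.018 ± 0.31 in the same order. Neither was called (edgeR adjusted p = 0.170 for RNY3 and 0.234 for RNY5 in nuc). The median of the 10, vault RNAs included, was -0.39 in total RNA, -0.83 in nuc and -0.077 in cyto. Over all rows it was -0.012, 0.080 and 0.0090.

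**Figure D4:**
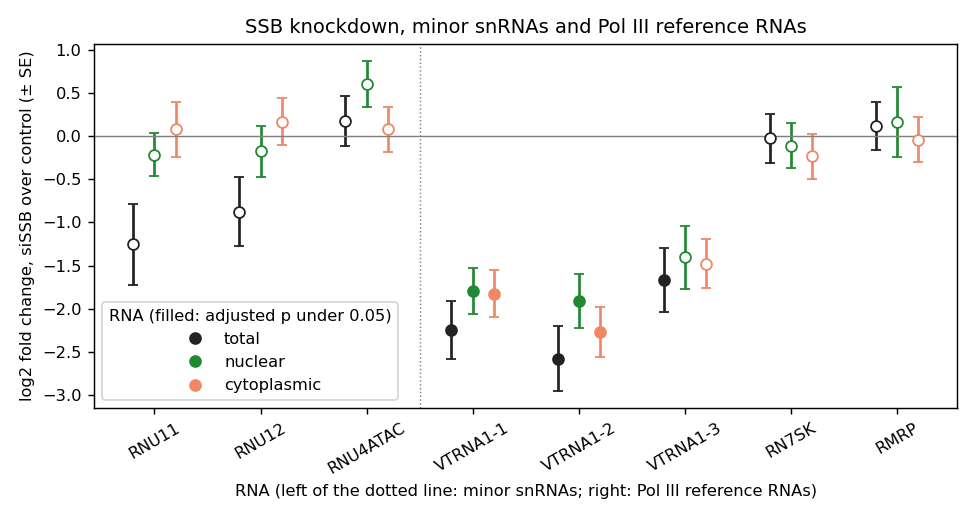
Log2 fold change of siSSB over control ± SE (y axis) in total, nuclear and cytoplasmic RNA for 3 minor snRNAs and 5 Pol III reference RNAs (x axis), filled where the edgeR adjusted p was under 0.05. No minor snRNA is filled, with values from -1.25 to 0.61, and VTRNA1-1 and VTRNA1-2 are filled in all 3 kinds of RNA under TMM.

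The rows most like each functional locus were sought by the root mean square difference of the 6 group means, as log2(CPM + 1) centred over groups, among 1132 rows of at most 500 nt with a mean of at least 50 counts. For RNU11 they were the snoRNAs SNORA25 (0.25), SNORA8 (0.25) and SNORD62B (0.26). For RNU12 they were 2 rows of 5S rRNA copies (0.16 and 0.18) and tRNA-Thr-CGT-5-1 (0.19). For RNU4ATAC they were SNORA53 (0.078), MIR1248-2 (0.087) and SNORA73B (0.10). The added 1 compresses differences at low CPM, which applies to RNU4ATAC and to the matches of RNU12 and RNU4ATAC alike. RNU12 came only at place 293 for RNU11, with a difference of 1.08, and RNU4ATAC at place 81 for RNU12, with 0.39.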

How the data were processed

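The authors deposited raw counts, whole numbers of reads per noncoding RNA row of an hg38 annotation, with no normalization. The submitters' notes name Bowtie2 and bedtools. The study gives versions of both for its eCLIP-seq and RNA-seq without naming these small RNA libraries, and settings and the treatment of reads with several positions are not given in the sources used here. A read in overlapping rows was counted in each, so column sums (21565995 to 158244813) are not read numbers. Intervals of the table carry flanks of about 25 nt.

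Groups and replicates came from the sample titles. Each comparison was fitted on its own libraries in R 4.3.3 by edgeR 4.0.16, which loads limma 3.58.1, using filterByExpr, TMM, quasi-likelihood F-test, and Benjamini-Hochberg adjustment over all rows tested (adjusted p under 0.05). The fit was tested on simulated data. DESeq2 1.42.0, other scalings and filters, leaving out each library and a replicate block were alternatives. Ratios used counts within a library, with U1, U2, U4, U5 and U6 summed over their rows of at most 500 nt and identical counts taken once. Identity came from global alignment (Biopython 1.88) to hg38. No molecular identifiers were described.

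Named were the 4 functional loci, the 6 copies with the highest mean count, and lists of major snRNAs and Pol III RNAs. The members and lists were chosen with earlier results of these data known. The permutation tests of ratios, the U11 to U12 and U1 to U2 ratios and the copy share were chosen after seeing the data. Replicate numbers were taken as pairs only for the control nuc and cyto libraries. Their deviations correlated weakly (0.114, 0.182 and 0.139 for replicates 1, 2 and 3). For siSSB nuc and cyto the correlations were -0.00546, 0.228 and 0.103, so this choice rests on a small difference.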

Additional observations from a re-analysis of the deposited data

How the results depend on the processing

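Scaling decided the nuc against cyto calls. In control cells the members called higher numbered 0 under the column sum, 0 under the snoRNA total, 1 under the total of rows of at most 500 nt and 1 under the major Pol II snRNA total, and those called lower 5, 6, 4 and 4 of 6, where 96.3%, 97.5%, 94.3% and 94.0% of all rows were called lower. The siSSB counts under these 4 scalings were the same, 0, 0, 1 and 1 higher and 5, 6, 4 and 4 lower, where 96.0%, 97.6%, 93.8% and 92.7% of all rows were lower. DESeq2 called 0 lower in control cells. Without 1 library, 3 were called higher and 0 to 1 lower in control cells, and 2 to 3 higher and 0 lower in siSSB cells. In knockdown total RNA, 2 members were called lower under the miRNA total, while leaving out a library gave 0. Over all rows, knockdown calls numbered 186 in total RNA (69 to 2117 over the alternatives), 26 in nuc (0 to 67) and 55 in cyto (2 to 248, with 4 under the replicate block), and calls for the difference between fractions 5 (1 to 24). The control nuc against cyto calls were 2465 higher and 3777 lower with TMM, and 206 and 26108 under the snoRNA total. In total knockdown RNA they were 51 higher and 135 lower with TMM, and 655 and 45 under the major Pol II snRNA total.

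Log2 fold changes of nuc over cyto turned negative as follows. Under the column sum, control values were -2.58 for RNU12, -3.62 for RNU12-2P, -1.73 for RNU4ATAC and -3.002 for RNU6ATAC, and siSSB values -0.092 for RNU11, -2.76 for RNU12, -3.71 for RNU12-2P and -0.999 for RNU4ATAC. Under the snoRNA total they were -1.71 for RNU11, -4.36, -5.42, -3.57 and -4.73 for RNU12, RNU12-2P, RNU4ATAC and RNU6ATAC in control cells, and -2.11, -4.78, -5.72 and -3.04 for RNU11, RNU12, RNU12-2P and RNU4ATAC in siSSB cells. Under the total of rows of at most 500 nt they were -1.37 (RNU12), -2.43 (RNU12-2P), -0.53 (RNU4ATAC) and -1.82 (RNU6ATAC) in control and -1.65 (RNU12) and -2.59 (RNU12-2P) in siSSB cells. Under the major Pol II snRNA total they were -1.49, -2.51, -0.63 and -1.86 for the same RNAs in control and -1.38 and -2.34 in siSSB cells. RNU12-2P, called in neither TMM fit, also had -0.28 with no filter in siSSB cells, and -0.16 to 0.97 in control and -0.14 to 0.23 in siSSB cells without 1 library.

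Knockdown values that were called nowhere also crossed 0. In nuc, RNU11 had 0.16, 0.099, 0.10, 0.048 and 0.024 and RNU12 had 0.19, 0.12, 0.13, 0.16 and 0.087 under the column sum, the snoRNA total, the total of rows of at most 500 nt, the major Pol II snRNA total and rows of at most 500 nt alone, and RNU12 had 0.051 under the miRNA total. In cyto, RNU11 had -0.011 under the miRNA total and RNU4ATAC -0.073 under the major Pol II snRNA total. In total RNA, RNU4ATAC had -0.36 under the miRNA total. The nuc minus cyto difference was 0.044 for RNU11 and 0.11 for RNU12 under the major Pol II snRNA total. Without 1 library, the ranges that crossed 0 were -0.17 to 0.49 (RNU11, cyto), -0.042 to 0.40 (RNU12, cyto), -0.040 to 0.32 (RNU4ATAC, cyto), -0.52 to 0.19 (RNU12, nuc) and -0.025 to 0.41 (RNU4ATAC, total). The cause of these changes was not tested.

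The ratio differences kept their direction without any 1 library, at 2.54 to 2.78 for U11 to U12 and -1.34 to -1.09 for U12 to U2 on the log2 scale. Summing all U4atac rows gave 0.44 (p = 0.07, exact permutation test) for U4atac to U4. With the replicate block, RNU11 rose by 4.23 in control nuc over cyto, and in every comparison the block changed no member's call. With control pairs kept in the permutation, an alternative chosen after seeing the data, p was 0.0125 for 6 of the 7 ratios and 0.025 for U4atac to U4 (exact permutation test). Depth limits U6atac and the copies, with at most 8 counts per library at RNU6ATAC.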
